A study of Gallus gallus with 9 samples.

Results

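RHOC and SRC, a small GTPase and a tyrosine kinase that both act on the actin cytoskeleton, were followed in hen granulosa cells over the ovulatory cycle. They are 2 of the 12479 protein-coding genes (mRNAs) listed in the deposited expression table. They were picked because their mRNA levels at ZT20 lay far under those at ZT12, so every ZT20 value of RHOC and SRC below is a description without a test. Total RNA came from granulosa cells of the largest preovulatory follicle (F1) of 210-day-old Rohman layers with no drug or gene manipulation. 3 hens each were sampled at zeitgeber time 0 (ZT0, early in the cycle), ZT12 (middle) and ZT20 (the luteinizing hormone surge stage), giving 9 libraries. Levels are TPM, the length-scaled share of a transcript among all transcripts of a library, so levels of different genes can be compared. The study lists raw reads per library, but the number of reads behind the level of each gene is unknown.

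RHOC encodes a small GTPase, a molecular switch that is active when bound to GTP and inactive when bound to GDP. Its active form, like that of the closely related RHOA, drives actin filament assembly and myosin contraction. Src is a membrane-anchored tyrosine kinase at integrin adhesions and growth factor receptors, where it phosphorylates adaptors, enzymes and cytoskeletal proteins. In the preovulatory follicle the granulosa layer surrounds the oocyte and responds to luteinizing hormone with steroid output and changes of cell shape and contact.

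In the authors' annotation of the Ensembl chicken genome, RHOC (ENSGALG00000001569) spans bases 3550497 to 3556153 of chromosome 26 with 5 exons. SRC (ENSGALG00000003855) spans bases 5211688 to 5221420 of chromosome 20, and its annotated transcript has 4 exons, so its level rests on this short model.

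RHOC mRNA was abundant at ZT0, lower at ZT12 and low in the mRNA distribution at ZT20. RHOC had 119, 117 and 148 TPM in the ZT0 hens, 62.5, 73.0 and 73.9 TPM in the ZT12 hens, and 2.10, 1.55 and 0.408 TPM in the ZT20 hens. The 3 stages did not overlap in any pair. The ZT20 hens were the most scattered, with a 5.16-fold gap between the highest and the lowest. This gap was 1.18-fold at ZT12 and 1.27-fold at ZT0. The wide gap at ZT20 rests on replicate 3, which had the lowest value. Stage means were 128 ± 17.6 TPM at ZT0, 69.8 ± 6.32 TPM at ZT12 and 1.35 ± 0.865 TPM at ZT20 (SD, n = 3 each). The ZT20 mean was 1.94% of the ZT12 mean and 1.06% of the ZT0 mean, a level 51.6-fold and 94.6-fold lower. On the log2(TPM + 1) scale, which understates changes of low values, RHOC differed by -4.98 (SE 0.26) for ZT20 minus ZT12 and by -5.84 (SE 0.26) for ZT20 minus ZT0. Among the 12472 mRNAs above the expression filter, RHOC stood between percentiles 91.9 and 93.7 in the ZT0 libraries, between 86.3 and 89.7 in the ZT12 libraries and between 7.8 and 24.4 in the ZT20 libraries.

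SRC mRNA followed the same order of stages at a lower level. SRC had 45.4, 56.0 and 57.9 TPM in the ZT0 hens, 30.1, 33.2 and 41.8 TPM in the ZT12 hens, and 0.598, 0.871 and 0.383 TPM in the ZT20 hens. Again no value of one stage reached into another, although the highest ZT12 hen lay close to the lowest ZT0 hen, and all 3 ZT20 hens stayed under 1 TPM. Means were 53.1 ± 6.72 TPM at ZT0, 35.0 ± 6.03 TPM at ZT12 and 0.617 ± 0.245 TPM at ZT20 (SD, n = 3 each), so the ZT20 mean was 1.76% of the ZT12 mean and 1.16% of the ZT0 mean. The fitted difference was -4.48 (SE 0.18) for ZT20 minus ZT12 and -5.07 (SE 0.18) for ZT20 minus ZT0. By percentile, SRC stood between 78.8 and 82.5 in the ZT0 libraries, between 72.9 and 81.8 in the ZT12 libraries and between 7.5 and 13.2 in the ZT20 libraries. In bulk RNA, fewer cells of a type and less RNA per cell cannot be told apart.

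**Figure D1:**
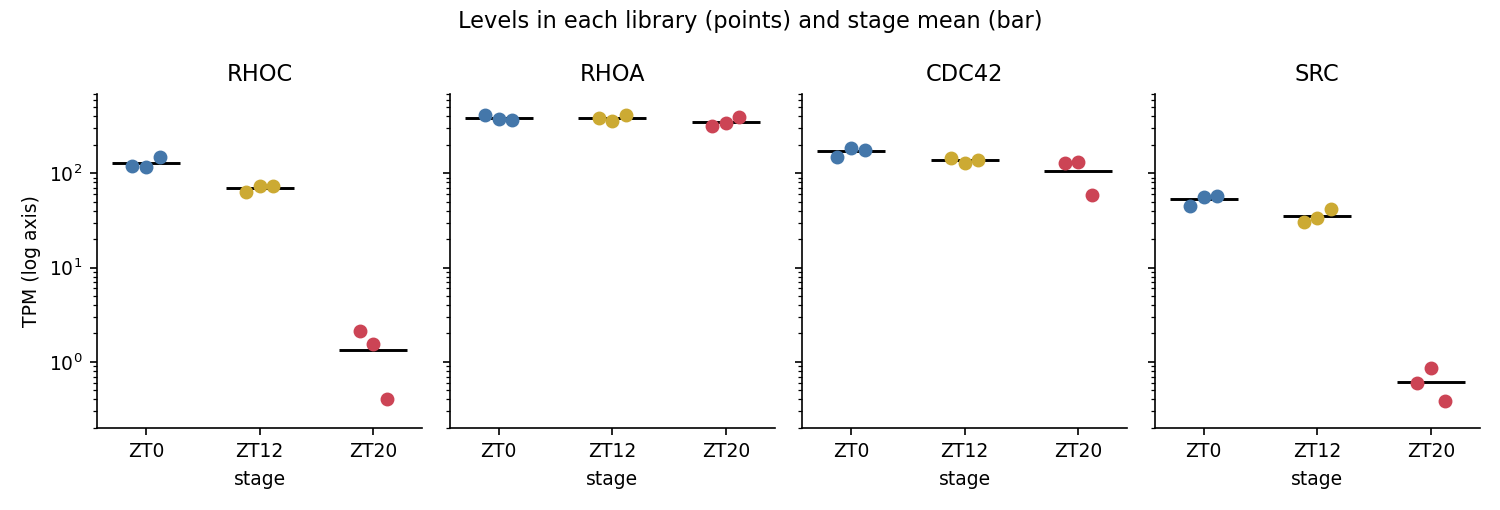
TPM of RHOC, RHOA, CDC42 and SRC (y axis, logarithmic) at ZT0, ZT12 and ZT20 (x axis), with 1 point per library and a bar at the mean of 3 libraries. RHOC reached at most 2.10 TPM and SRC at most 0.871 TPM at ZT20, whereas RHOA stayed between 313 and 415 TPM in all 9 libraries.

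Ranked by how far the level at ZT20 lay below that at ZT12 (genes that were higher at ZT20 come last in this order), RHOC came 1st and SRC 3rd among the 1823 filtered mRNAs that could be paired with a symbol, and 20th and 36th among all 12472. WSCD2, ranked between them, had -4.71 (51.4 TPM at ZT12 and 1.03 TPM at ZT20 in the mean). PPP1R12B, ranked just after SRC, had -4.42. TRAF4, an adaptor of the TNF receptor-associated factor family, came next in this order with -3.98. RHOC and SRC were picked for this same fall, so their high ranks follow from the choice.

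The step between ZT0 and ZT12 was not the ground for choosing the 2 genes, and it was tested across all mRNAs with limma. The choice did use the same ZT12 libraries, so this test is not independent of it. A gene was called when its absolute log2 fold change exceeded 1 and its Benjamini-Hochberg adjusted p was under 0.05, and 3.86% of all mRNAs were called for ZT12 against ZT0. Neither RHOC nor SRC was called. RHOC was lower at ZT12 than at ZT0 by -0.86 (SE 0.26, limma adjusted p = 0.0463), short of the fold threshold, and its adjusted p ran between 0.0133 and 0.263 over the alternative settings. SRC differed by -0.59 (SE 0.18, limma adjusted p = 0.0510, range 0.0371 to 0.470 over the alternatives). In TPM, ZT12 held 54.5% of the ZT0 mean for RHOC and 66.0% for SRC. The median of all mRNAs was itself -0.28 in this contrast, and once each library was scaled by its median ratio, which brought that median to -0.02, the differences were -0.52 for RHOC (adjusted p = 0.263) and -0.26 for SRC (adjusted p = 0.470).

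RHOC was next compared with other small GTPases that were paired with an expression row. RHOA, which shares most effectors with RHOC, had 415, 375 and 368 TPM at ZT0, 383, 354 and 414 TPM at ZT12, and 313, 339 and 394 TPM at ZT20. The 3 stages of RHOA overlapped, with a difference of -0.14 (SE 0.13, limma adjusted p = 0.387) for ZT20 minus ZT12. RHOC therefore made up 22.3, 23.7 and 28.7% of the summed RHOA and RHOC level in the ZT0 hens, 14.0, 17.1 and 15.1% in the ZT12 hens, and 0.667, 0.455 and 0.103% in the ZT20 hens. This share compares 2 genes within a library and is free of library scaling, and its stages did not overlap. Its means were 24.9 ± 3.36% at ZT0, 15.4 ± 1.55% at ZT12 and 0.408 ± 0.285% at ZT20 (SD, n = 3 each).

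**Figure D2:**
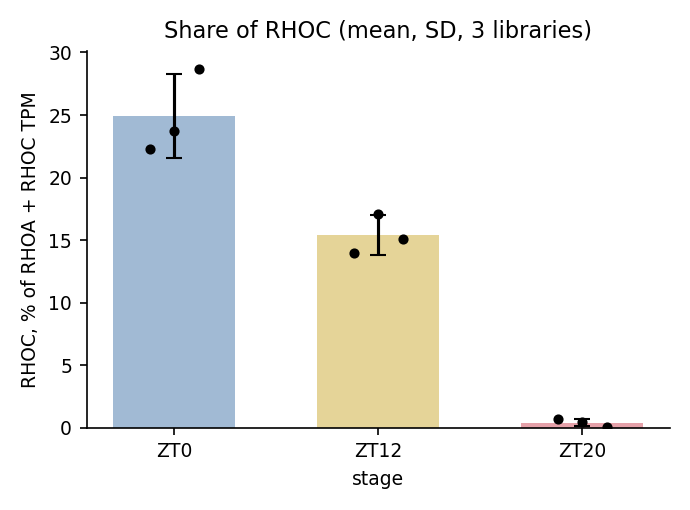
RHOC as a percentage of the summed TPM of RHOA and RHOC (y axis) at ZT0, ZT12 and ZT20 (x axis). Bars are means of 3 libraries, error bars the SD and points the libraries. The ZT20 mean of 0.408% lies under the 15.4% of ZT12 and the 24.9% of ZT0.

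Of CDC42, RHOBTB1, RHOT1 and RHOT2, RHOBTB1 passed the test for ZT20 against ZT12, where 27.8% of all mRNAs were called (16.0% higher and 11.7% lower). RHOBTB1, an atypical GTPase thought not to cycle between GTP and GDP, rose by 2.13 (SE 0.20, limma adjusted p = 9.78e-06), with 4.55, 4.50 and 6.08 TPM at ZT20 against 0.799, 0.161 and 0.243 TPM at ZT12. Every ZT20 hen was above every ZT12 hen. CDC42, the GTPase of filopodia and cell polarity, differed by -0.45 (limma adjusted p = 0.192). Its level was 58.2 TPM in ZT20 replicate 3, and 130 and 132 TPM in the other ZT20 hens. The mitochondrial GTPases RHOT1 and RHOT2 had -0.23 and 0.73 and were not called.

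Of 13 tested genes in the list that holds the actomyosin genes, 2 (15.4%) were called at ZT20 against ZT12, beside 27.8% of all mRNAs, and 11 were not. Both that were called encode subunits of protein phosphatase 1 complexes. A form of this enzyme, myosin phosphatase, removes the phosphate that switches myosin on. PPP1R12B, a myosin-targeting subunit of that phosphatase, had 79.4, 94.7 and 104 TPM at ZT0, 80.7, 71.7 and 70.1 TPM at ZT12, and 2.77, 3.19 and 1.73 TPM at ZT20. It fell by 4.42 (SE 0.18, limma adjusted p = 3.81e-08). PPP1CC, a catalytic subunit shared by many phosphatase 1 complexes, had 35.9, 36.9 and 77.0 TPM at ZT0, 23.5, 18.4 and 24.1 TPM at ZT12, and 332, 271 and 249 TPM at ZT20. It rose by 3.63 (SE 0.27, limma adjusted p = 1.87e-06). Whether PPP1CC acts in the myosin phosphatase was not tested. The ZT20 libraries thus held the lowest PPP1R12B and the highest PPP1CC values of the 9, without overlap with the other stages.

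Of 19 actin filament assembly genes, 4 (21.1%) were called higher and 4 (21.1%) lower at ZT20 than at ZT12. Of all mRNAs, 16.0% were called higher and 11.7% lower. The median difference of the 19 genes was -0.26 beside 0.08 for all mRNAs. Without the fold threshold, 14 of the 19 had a limma adjusted p under 0.05, as did 6638 of the 12472 mRNAs. PLS1 (plastin 1), which bundles actin filaments, rose by 4.06 (SE 0.24, limma adjusted p = 4.06e-07), with 47.6, 31.2 and 39.2 TPM at ZT20 against 1.54, 1.30 and 1.31 TPM at ZT12. CYFIP2 and NCKAP1, subunits of the WAVE complex that links Rac to the Arp2/3 complex, rose by 2.46 and 1.68. FNBP1, a membrane-bending protein that binds Cdc42 and N-WASP, rose by 2.18. On the other side were BAIAP2L1, which couples curved membrane to actin (-1.91), the coronins CORO2A (-1.82) and CORO1C (-1.03), and TMOD2, a cap of filament pointed ends (-1.42). The CORO1C call was lost without ZT12 replicate 1 (-0.98), ZT12 replicate 2 (-0.98) or ZT20 replicate 1 (-0.92).

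**Figure D3:**
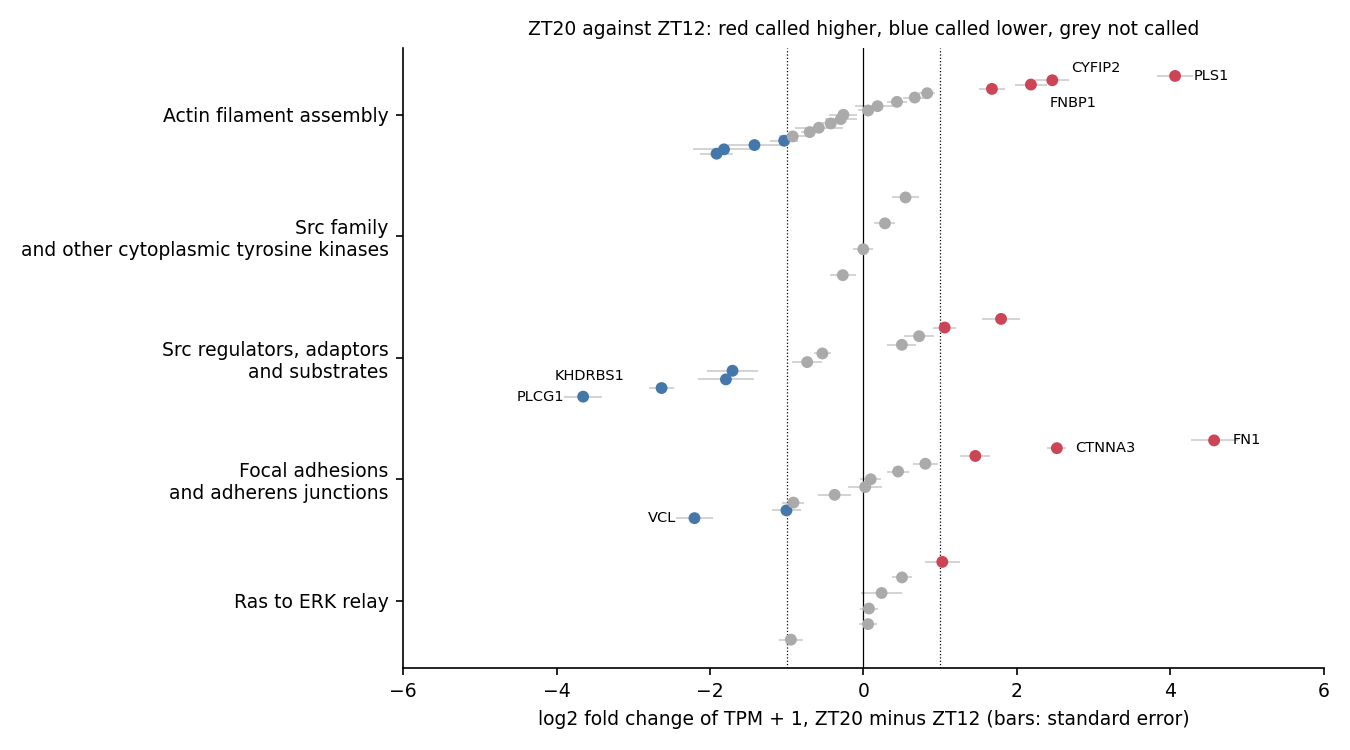
Log2 fold change of TPM + 1 for ZT20 minus ZT12 (x axis, bars are standard errors) of 50 tested genes in 5 pathway lists, SRC left out, grouped by list (y axis), with dotted lines at -1 and 1. 10 genes were called higher (red) and 10 lower (blue). PLCG1 (-3.65) lies farthest to the left and FN1 (4.57) farthest to the right.

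SRC was likewise set beside other cytoplasmic tyrosine kinases, of which 4 besides SRC were paired and tested. None passed the test for ZT20 against ZT12 or for ZT20 against ZT0, where 28.2% of all mRNAs were called. Without the fold threshold, a limma adjusted p under 0.05 was reached by 6638 of the 12472 mRNAs for ZT20 against ZT12. For ZT20 against ZT0 it was reached by 6676, and of the 4 kinases by 1 in each contrast. These were FER for ZT20 against ZT12 (limma adjusted p = 0.024) and ABL1 for ZT20 against ZT0 (-0.68, limma adjusted p = 0.0066). ABL1, an actin-binding kinase, had 30.7, 38.1 and 44.4 TPM at ZT0, 27.4, 28.9 and 27.0 TPM at ZT12, and 26.2, 24.4 and 18.7 TPM at ZT20. FER, which acts at cell junctions, had means of 12.3 TPM at ZT0, 10.6 TPM at ZT12 and 15.9 TPM at ZT20. BTK, a kinase of blood cells, and MATK, which phosphorylates the inhibitory tail of Src family kinases, stayed under 1 TPM in all 9 libraries. Below 1 TPM no difference above 1 on the log2(TPM + 1) scale can arise, so neither BTK nor MATK could be called. The ZT20 minus ZT12 differences were -0.27 for ABL1, 0.55 for FER, 0.28 for BTK and -0.00 for MATK. The closest relatives of SRC, such as Fyn and Lyn, were not paired with a row and were not analysed here.

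Of 10 Src regulators, adaptors and substrates, 4 were called lower and 2 higher at ZT20 against ZT12. Of all mRNAs, 16.0% were called higher and 11.7% lower. The other 4 genes of this list were short of the fold threshold. Without that threshold, all 10 had a limma adjusted p under 0.05, as did 6638 of the 12472 mRNAs. PLCG1, the phospholipase that Src family and receptor kinases activate by phosphorylation, had 28.3, 38.2 and 42.6 TPM at ZT0, 18.0, 21.0 and 35.1 TPM at ZT12, and 1.20, 0.923 and 0.800 TPM at ZT20. It fell by 3.65 (SE 0.25, limma adjusted p = 1.11e-06), and no ZT20 hen came near the other stages. KHDRBS1 (Sam68), an RNA-binding protein first known as a mitotic Src substrate, fell by 2.63 to 12.9, 9.60 and 13.1 TPM at ZT20, against 89.9, 74.4 and 70.7 TPM at ZT12. SH3PXD2B (Tks4), a Src substrate of podosomes, fell by 1.79, and DAB2IP, a Ras GTPase-activating scaffold, fell by 1.71. RAPGEF1, a Rap1 exchange factor bound by Crk, rose by 1.79. The transcription factor STAT3 rose by 1.06. Its call was lost without ZT20 replicate 1 (0.95) and under both scalings (0.97 with median ratios and 0.85 with quantile normalization). For ZT20 against ZT0, 5 of the 10 genes were called lower and 0 higher, beside 16.6% lower and 11.6% higher of all mRNAs. RAPGEF1 (0.758) and STAT3 (0.314) were not called in that contrast.

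At adhesions and junctions, where Src acts, 3 of 11 genes (27.3%) were called higher and 2 (18.2%) lower at ZT20 against ZT12. Of all mRNAs, 16.0% were called higher and 11.7% lower. FN1 (fibronectin), the integrin ligand of the matrix, rose by 4.57 (SE 0.30, limma adjusted p = 9.68e-07), with 2444, 3609 and 2947 TPM at ZT20 against 97.1, 113 and 172 TPM at ZT12. CTNNA3, an alpha-catenin, rose to 4.42, 5.48 and 4.68 TPM at ZT20, against 0, 0.0158 and 0.0405 TPM at ZT12, and the integrin-linked LIMS2 rose by 1.46. CTNNA1, a more abundant alpha-catenin, went the other way, with means of 67.65 TPM at ZT12 and 35.75 TPM at ZT20. Its difference of -0.91 (limma adjusted p = 0.000389) was short of the fold threshold. For ZT20 against ZT0, CTNNA1 was called lower (-1.50). VCL (vinculin), which couples adhesions to actin, fell by 2.20 (SE 0.24, limma adjusted p = 2.72e-05) to 5.54, 6.76 and 3.50 TPM at ZT20, against 27.0, 25.5 and 29.0 TPM at ZT12. TLN2, a talin that links integrins to actin, was called lower just past the fold threshold. The TLN2 call was lost without ZT12 replicate 1 (-0.89), ZT20 replicate 1 (-0.92) or ZT20 replicate 3 (-0.91). TLN1, another talin, had 0.02 (limma adjusted p = 0.938). Of 6 genes of the Ras to ERK relay, 1 (16.7%) was called, beside 27.8% of all mRNAs. RASA2, a Ras GTPase-activating protein, rose by 1.03. Its call was lost without ZT12 replicate 3 (0.75) or ZT20 replicate 3 (0.90). It was also lost under both scalings (0.94 with median ratios and 0.86 with quantile normalization). RASAL2, another Ras GTPase-activating protein, went the other way (-0.945, limma adjusted p = 0.00056), short of the fold threshold. For ZT20 against ZT0, RASAL2 was called lower (-1.59) and RASA2 was not called (0.515).

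Over all 9 lists, 27 of 82 genes (32.9%) passed the test for ZT20 against ZT12, 14 higher and 13 lower (12 and 17 under quantile normalization), beside 27.8% of all mRNAs, and their median difference was 0.06 beside 0.08 for all mRNAs. For ZT20 against ZT0, 29 (35.4%) passed, 10 higher and 19 lower, beside 28.2% of all mRNAs (11.6% higher and 16.6% lower), with a median of -0.30 beside -0.19. Of all mRNAs, 1442 were called higher and 2070 lower in that contrast, against 1729 higher and 1564 lower under median ratio scaling. Both contrasts use the same ZT20 libraries. For ZT12 against ZT0, 5 genes (6.10%) were called beside 3.86% of all mRNAs (0.537% higher and 3.32% lower). Under median ratio scaling the calls over all mRNAs divided into 101 higher and 102 lower, against 67 higher and 414 lower without it. All 5 pathway genes were lower at ZT12, with a median over the 82 genes of -0.35 beside -0.28. FN1 fell by 2.57 and PLS1 fell by 1.47 at ZT12 relative to ZT0, and both held under every alternative. PPP1CC (-1.06), RAPGEF1 (-1.04) and RTKN2 (-1.03) were called at ZT12 as well, and each lost its call under both scalings. That count of 5 became 2 without ZT0 replicate 3, 3 without ZT12 replicate 1, 2 without ZT12 replicate 2, 2 without ZT12 replicate 3 and 3 under median ratio scaling, where 1 of the 3 was higher.

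The genes next to RHOC and SRC on their chromosomes were examined within 100 kb. PPM1J, a PP2C-type protein phosphatase 1.9 kb beyond RHOC, had 18.2, 22.8 and 27.9 TPM at ZT0, 15.9, 15.4 and 13.9 TPM at ZT12, and 0.595, 0.713 and 0.950 TPM at ZT20. It fell by 3.20 (SE 0.18, limma adjusted p = 3.34e-07) at ZT20 against ZT12. CAPZA1, the actin capping protein subunit 8.9 kb on the other side of RHOC, had 62.1, 66.9 and 66.9 TPM at ZT20 against 89.6, 95.3 and 79.8 TPM at ZT12, a difference of -0.43 that was not called. ST7L (-0.07), SLC16A1 (-0.88) and LRIG2 (-0.05), between 24.0 and 80.9 kb away, were not called either, so 1 of 5 mRNA neighbours of RHOC passed, near the 27.8% of all mRNAs. The lncRNA G9899, which lies 3.5 kb beyond RHOC over PPM1J, had means of 1.41 TPM at ZT0, 0.804 TPM at ZT12 and 0.187 TPM at ZT20 and was not called for ZT20 against ZT12 (-0.63), where 20.8% of lncRNAs were. How reads were assigned to PPM1J and to the overlapping G9899 is not known, so their levels are uncertain. For ZT20 against ZT0, 2 of the 5 mRNA neighbours of RHOC were called, beside 28.2% of all mRNAs. These were PPM1J (-3.76) and SLC16A1 (-1.22), both lower. G9899 was called lower there as well (-1.05). The calls of SLC16A1 and G9899 were lost under some alternatives.

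Around SRC, 1 of 5 mRNA neighbours was called at ZT20 against ZT12, again near the 27.8% of all mRNAs. DBNDD2, a dysbindin-domain protein 26.6 kb away, fell by 3.07 (SE 0.17, limma adjusted p = 2.30e-07), with 6.58, 6.52 and 8.36 TPM at ZT20 against 58.3, 64.7 and 79.5 TPM at ZT12. PIGT, which lies between SRC and DBNDD2 and belongs to the complex that attaches GPI anchors, had 0.12 and was not called. RPN2, an oligosaccharyltransferase subunit, had 0.00, the Golgi protein SYS1 had -0.29 and the heparan sulfate proteoglycan SDC4 had -0.38. The lncRNA G8387, 89.2 kb away, had 0.72 and was not called. The annotation used gives positions for 1998 of the 12479 mRNAs, so further genes may lie in these windows.

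**Figure D4:**
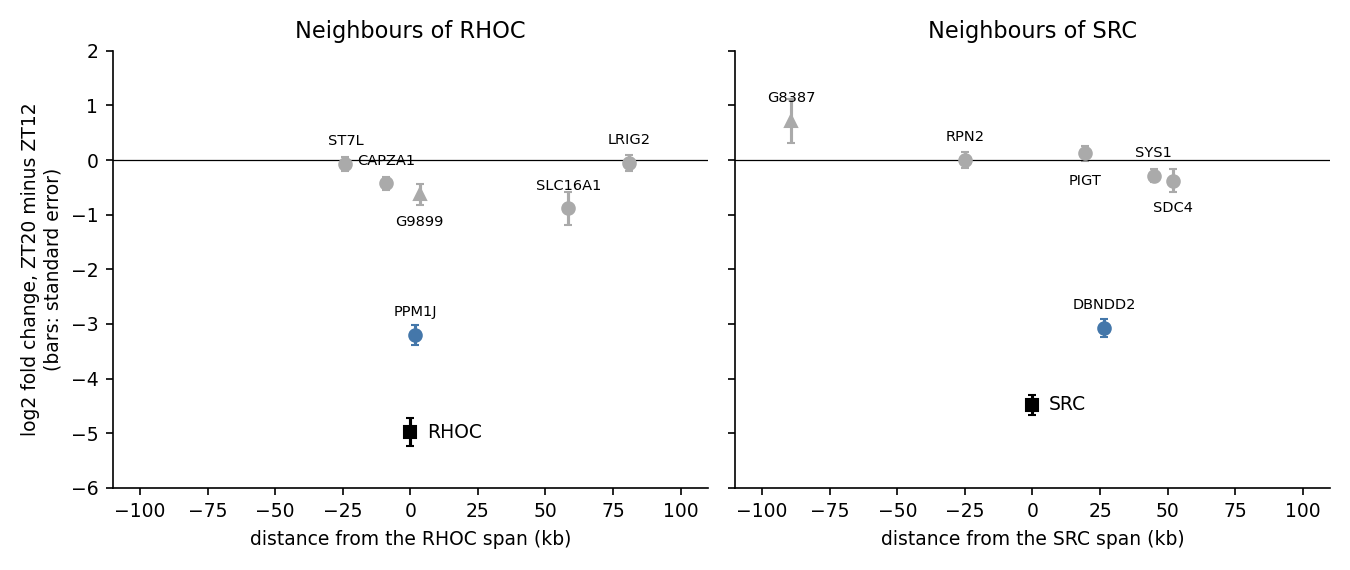
Log2 fold change for ZT20 minus ZT12 (y axis, bars are standard errors) against the distance in kb from RHOC (left) and SRC (right), drawn as black squares. Circles are mRNAs, triangles lncRNAs, blue called lower and grey not called. PPM1J (-3.20) and DBNDD2 (-3.07) are the called neighbours.

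Finally, the genes whose levels over the 9 libraries ran closest to RHOC or SRC were listed, by the root mean square difference of log2(TPM + 1) after centring each gene on its own mean. The 2 genes were close to each other at 0.41, which made SRC the closest of 1822 symbol-paired mRNAs to RHOC and RHOC the third closest to SRC. Among all 12471 other mRNAs, with or without a symbol, SRC ranked 3rd for RHOC and RHOC 26th for SRC, and both were picked for the same low level at ZT20. Of the symbol-paired mRNAs, closest to SRC was PPP1R12B at 0.22, followed by TRAF4 (0.40), and after RHOC by PLCG1 (0.43) and PLEKHF1, an endosomal protein (0.44). After SRC, RHOC was nearest to PPP1R12B (0.50), WSCD2 (0.66), TRAF4 (0.69) and LHFPL2 (0.74). Of 7414 lncRNAs, the same pair came first for both genes. ENSGALG00000045740 lay at 0.20 from SRC and 0.48 from RHOC, with 487, 469 and 480 TPM at ZT0, 326, 383 and 333 TPM at ZT12, and 12.8, 14.8 and 14.5 TPM at ZT20. G9266 on chromosome 23 lay at 0.36 from SRC and 0.63 from RHOC. All these profiles share the same libraries and mostly the large step to ZT20.

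**Figure D5:**
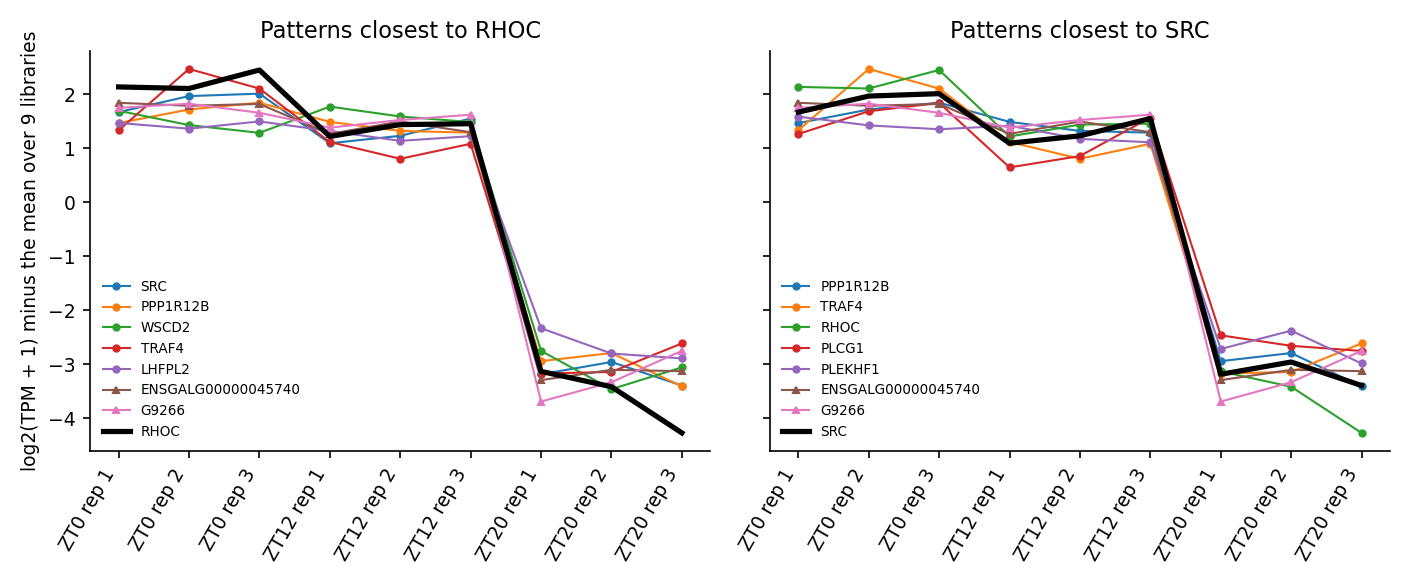
Log2(TPM + 1) minus the gene's mean over 9 libraries (y axis) in each library (x axis) for RHOC and SRC (black) and the 5 symbol-paired mRNAs and 2 lncRNAs (triangles) closest to each. All profiles drop at ZT20, and PPP1R12B lies 0.22 from SRC while RHOC and SRC lie 0.41 apart.

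Marker genes were measured beside these results, and their part in them was not tested. Of 13 granulosa markers, 3 were paired. NR5A1 and NR5A2, nuclear receptors of steroidogenic cells, fell by 2.06 and 3.31 at ZT20 against ZT12, and STAR, which delivers cholesterol for steroid synthesis, rose by 3.13 to a mean of 13570 TPM. In that contrast 16.0% of all mRNAs were called higher and 11.7% lower. The 2 of 8 endothelial markers that were paired, CLDN5 and S1PR1, were both called lower there, and the other endothelial markers were not measured. The summed level of CLDN5 and S1PR1 lay between 40.2 and 90.2 TPM in the ZT0 hens. It lay between 26.9 and 34.7 TPM in the ZT12 hens and between 7.04 and 7.94 TPM in the ZT20 hens. The 3 paired of 14 theca and fibroblast markers together had between 1.12 and 4.41 TPM in the ZT0 hens, between 0.303 and 0.394 TPM in the ZT12 hens and between 3.56 and 6.43 TPM in the ZT20 hens. For ZT20 against ZT12, FBN1 was called higher (1.985). COL6A3 also rose (0.894, limma adjusted p = 0.000159) but was short of the fold threshold, and MYOCD (-0.126) was not called. For ZT20 against ZT0 the directions differed, with FBN1 called higher (1.366). MYOCD was called lower for ZT20 against ZT0 (-1.035), with 2.99 TPM in ZT0 replicate 3. The 5 paired of 6 leukocyte markers together had between 232 and 271 TPM in the ZT0 hens, between 221 and 349 TPM in the ZT12 hens and between 150 and 203 TPM in the ZT20 hens. These 5 did not move together. FYB held most of the leukocyte sum in every library, with 116.5 to 237.2 TPM, and differed by -0.52 for ZT20 minus ZT12, not called. CD74 was called lower (-1.24, limma adjusted p = 0.0366). PTPRC (CD45), which defines leukocytes, was under 1 TPM throughout, as was DOCK2, so neither could pass the fold threshold. Their ZT20 minus ZT12 differences were 0.37 for PTPRC (limma adjusted p = 0.0412) and 0.47 for DOCK2 (limma adjusted p = 0.00724). RGS1 was listed at 0 in all ZT0 and ZT12 libraries but at 5.09, 14.1 and 13.7 TPM at ZT20.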

How the data were processed

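Ribosomal RNA-depleted total RNA of F1 granulosa cells from 9 hens was analysed from the authors' tables, with stages taken from the sample labels. The authors mapped reads with STAR 2.6.0c, assembled transcripts with Cufflinks (version 2.2.1 in the submitters' notes) and used Kallisto for TPM. The tables the authors deposited hold log2 values. TPM was recovered by undoing the log2 and subtracting a constant, 1 in the mRNA table and 2 in the lncRNA table, which was read from the lowest value of each. The planned tests, written for TPM, were run on these recovered values. The summed mRNA TPM was 839819 to 883100 per library. TPM values hold no depth, so no counting interval is given. Symbols and positions came from the part of the study's transcript table at hand, which paired 1824 mRNA rows with a symbol. Tables of the authors' own comparisons hold fold changes and p-values and were not used. DESeq2, named in the study's methods, needs counts and was not run.

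mRNAs above 0.1 TPM in at least 1 library (12472) and lncRNAs (7414) were fitted separately with limma 3.58.1 in R 4.3.3 on log2(TPM + 1), with 3 stage means, a mean-variance trend and all 9 libraries sharing one spread. p-values were adjusted by Benjamini-Hochberg over each table. The script was tested on simulated data. Figures and summaries used Python 3.11.15, numpy 2.4.6, pandas 2.3.3 and matplotlib 3.10.9. The members and the 9 pathway lists (270 symbols, 84 paired, 82 tested without RHOC and SRC) were chosen with earlier results of these data known. 3 of these lists are not reported separately here, and their genes are named only where they are small GTPases. Named were paired small GTPases and cytoplasmic tyrosine kinases, the up to 4 most changed called genes in each direction of the other reported lists for ZT20 against ZT12, listed genes called for ZT12 against ZT0, neighbours within 100 kb, the genes ranked next to RHOC and SRC, and the 5 symbol-paired mRNAs and 2 lncRNAs closest in pattern. CTNNA1, TLN1, RASAL2 and the markers described singly were named after their values were seen. Alternatives were a pseudocount of 0.1, a filter of 1 TPM in 3 libraries, no filter, median ratio scaling, quantile normalization, no trend, fits of the compared stages only, a replicate block, leaving out each library and no fold threshold.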

Additional observations from a re-analysis of the deposited data

How the results depend on the processing

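RHOC and SRC kept the order ZT0, ZT12, ZT20 under all alternatives. With a pseudocount of 0.1, the ZT20 minus ZT12 difference was -5.83 for RHOC and -5.66 for SRC, and the ZT20 minus ZT0 difference was -6.70 for RHOC and -6.26 for SRC. SRC had -4.71 for ZT20 minus ZT12 under quantile normalization and -4.85 for ZT20 minus ZT0 under median ratio scaling. Without single libraries, ZT20 minus ZT12 ran from -5.22 to -4.65 for RHOC and from -4.59 to -4.35 for SRC.

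Counts for ZT12 against ZT0 moved most. The 5 pathway genes called became 3 under median ratio scaling (1 higher, 2 lower) and 21 with no fold threshold. Under quantile normalization 2 were higher and 2 lower, and without single libraries 2 to 5 were called, all lower. All mRNAs called (481, of which 67 higher and 414 lower) became 203 under median ratio scaling (101 higher, 102 lower), 215 under quantile normalization (115 higher, 100 lower), 785 with a pseudocount of 0.1, 2089 with no fold threshold and 196 to 699 without single libraries. With no fold threshold, ZT20 against ZT12 gave 48 pathway genes and 6638 mRNAs, and ZT20 against ZT0 gave 48 and 6676. Dropping the threshold admits small changes by construction, and the cause of the other shifts was not tested. Of the 27 pathway calls for ZT20 against ZT12, 23 held under every alternative.

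Stages share replicate numbers in the labels, but each stage was sampled from different hens, so the numbers do not pair libraries of the same hen. Deviations of same-numbered libraries correlated at -0.19 to 0.08. Whether the numbers mark a shared batch was not tested. With the number as a replicate block, the adjusted p for ZT12 minus ZT0 was 0.0790 for RHOC (-0.86) and 0.0801 for SRC (-0.59), and all mRNAs called for ZT12 against ZT0 numbered 388 (57 higher, 331 lower). The block changed no call of a pathway gene or neighbour. Low ZT20 levels of RHOC and SRC rest on an unknown number of reads.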

Other observations

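The order of the 3 stage means gives a further view of the cytoskeletal genes. RHOC and SRC were lower at each step, as were 32 of the 82 other pathway genes (39.0%, beside 33.0% of all mRNAs). In 39 pathway genes (47.6%, beside 47.1% of all mRNAs) the ZT12 mean was the lowest of the 3, among them FN1, PLS1, PPP1CC, RAPGEF1, CYFIP2 and LIMS2. With median ratio scaling, 23 genes (28.0%, beside 19.7%) were lower at each step and 27 (32.9%, beside 32.4%) had their lowest mean at ZT12. These orders are counted on means without a test.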
